A study of Setaria viridis with 15 samples.

Results

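Shoots of Setaria viridis grown for 7 days in air shared with the bacterial isolate CTB P6B8 were compared directly with shoots grown in air shared with the isolate MTS P5D6. The libraries were chosen by the isolate in their titles, 3 for CTB P6B8 and 4 for MTS P5D6, which is 7 of the 15 in the series. Setaria viridis is a small grass with C4 photosynthesis, in which carbon dioxide is first fixed in one leaf cell type and released around Rubisco in another. All plants were wild type. Seedlings 5 days old were placed 2 to a plate on half-strength MS medium, and 2 days later a smaller dish of LB medium carrying 20 µL of bacterial suspension was enclosed with them, so that plants and bacteria shared only the air of the sealed plate. The photoperiod was 12 h, at 28 °C by day and 25 °C by night, and total RNA of shoots was sequenced. Both groups were therefore exposed to a living isolate on the same medium, and the comparison has no bacterium-free arm. Levels in the 4 mock controls, which had an uninoculated dish, are given beside some results as background and were not tested here. The sources used here do not give the species of the isolates, the compounds they released or the number of plants behind a library.

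Bacteria release small volatile molecules, carbon dioxide and ammonia among them, that reach a plant without contact, and such exposure is known to alter growth, sugar status, hormone signalling and defence. Expansins loosen the cell wall during growth, peroxidases and laccases cross-link it, and lipid transfer proteins and fatty acid elongases supply the waxes and cutin of the surface. Ethylene receptors act as brakes on their own pathway, and EIN3-binding F-box proteins remove its main transcription factor.

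The CTB P6B8 libraries held 17118899 to 25123025 counts each and the MTS P5D6 libraries 16755755 to 19453085. The first principal component held 46.9% of the variance and placed the CTB P6B8 libraries at -30.4, -38.4 and -43.4 and the MTS P5D6 libraries between 25.2 and 30.1. Plastid-encoded genes took 0.184% of the counts of CTB P6B8 replicate 3 and 0.0386% to 0.0652% in the other 6 libraries. Shoot marker genes, such as light-harvesting proteins, summed to 12600 to 17000 CPM (counts scaled to library size, with TMM factors) in CTB P6B8 libraries and 12300 to 12600 in MTS P5D6 libraries, and 6 of 22 tested were higher with CTB P6B8. The 10 genes matched as root markers summed to 336 to 400 and 321 to 382 CPM, and of the 6 tested 1 was higher and 1 lower. Most of that sum came from a ROOT HAIR DEFECTIVE 3-like gene, averaging 163 and 207 CPM, and a root-specific lectin-like gene, averaging 146 and 97.0 CPM. Every Casparian strip gene averaged below 1 CPM in both groups, so the sum is no measure of root tissue. P-values measure the spread between libraries labelled as biological replicates.

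Expansins, with 13 of 23 tested genes higher beside CTB P6B8 and none lower, and ethylene genes, with 10 of 31 lower and 3 higher, had the highest and lowest median fold changes of the gene lists with at least 5 tested members. By the quasi-likelihood test of edgeR, with p-values adjusted by Benjamini-Hochberg, 4089 of 19645 genes tested (20.8%) differed at an adjusted p under 0.05. Of these, 2452 (12.5%) were higher and 1637 (8.33%) lower with CTB P6B8 than with MTS P5D6. The 2 groups did not overlap in CPM for 3997 of the 4089 calls. Over all tested genes, called or not, the groups were separate with CTB P6B8 higher for 18.0% and lower for 15.4%. At least a 2-fold difference was reached by 777 higher genes (3.96%) and 140 lower genes (0.713%), and the median size over all calls was 0.62 on the log2 scale. Scaling by total counts alone gave 2969 higher and 1054 lower, a higher share of 73.8% in place of 60%, and DESeq2 gave 2319 higher and 2213 lower, a share of 51.2%. That scaling moved the median over all genes from -0.0011 to 0.0617 on the log2 scale. Without CTB P6B8 replicate 3, 1937 genes were called, 1263 higher and 674 lower, and without CTB P6B8 replicate 1 the lower calls numbered 1051.

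The direction of the calls went with the level of the gene. Among 2853 genes with a mean log2 CPM below 1, 17.2% were called higher and 1.68% lower with CTB P6B8. From 1 to below 3, 19.7% of 4154 genes were higher and 2.99% lower, with a median log2 fold change of 0.19. From 3 to below 5, 12.5% of 5950 genes were higher and 6.52% lower. Among 6688 genes with a mean of 5 or more, 5.97% were higher and 16.1% lower, with a median of -0.11. The higher calls had a median log2 CPM of 2.8, the lower calls 5.61 and all tested genes 4.01. Genes with a mean log2 CPM below 3 together took 2.46% to 2.47% of the counts in each CTB P6B8 library, 1.95% to 2.06% with MTS P5D6 and 2.08% to 2.31% in controls. The shares for gene groups below can be read against these figures, and the part of gene level in them was not tested. Of the 2452 higher calls, the control mean lay above both isolate means for 822, between them for 1315 and below both for 315. Of the 1637 lower calls, it lay above both for 334, between them for 574 and below both for 729.

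**Figure D1:**
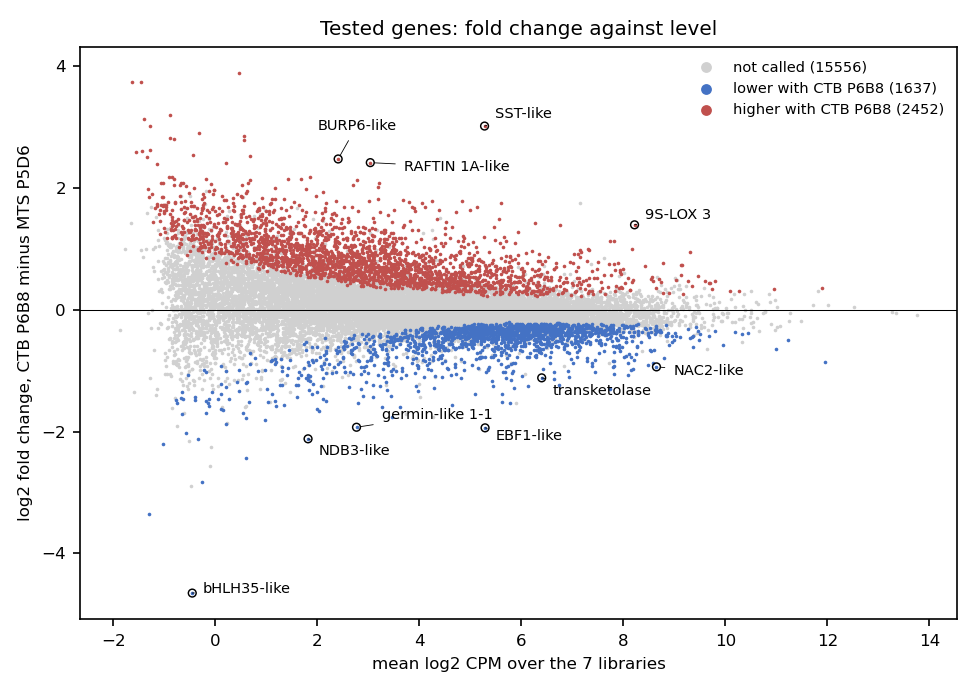
Log2 fold change, CTB P6B8 minus MTS P5D6, against mean log2 CPM over the 7 libraries, 1 point per gene tested, with 2452 higher calls, 1637 lower calls and 15556 genes not called in separate colours. Higher calls gather at low levels, with a median log2 CPM of 2.8, and lower calls at high levels, with a median of 5.61.

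The gene with the widest separation among the well-measured higher calls was a sucrose:sucrose 1-fructosyltransferase-like gene (LOC117861538), of the enzyme that begins fructan synthesis from sucrose. It stood at 139, 150 and 102 CPM in CTB P6B8 replicates 1 to 3 and at 23.1, 14.1, 14.9 and 12.9 CPM in MTS P5D6 replicates 1 to 4. Its log2 fold change was 3.01 ± 0.20 (SE, n = 3 and 4; edgeR adjusted p = 0.000397), 8.04-fold in mean CPM, and the control mean of 342 ± 40.8 CPM (SD, n = 4) lay above both. Values in brackets after gene identifiers are from here on log2 fold changes, CTB P6B8 minus MTS P5D6, ± SE with n = 3 and 4, and those called higher or lower passed edgeR's test. A sucrose transport protein SUT5-like gene (LOC117858716, 2.05 ± 0.14) read 14.3, 13.5 and 15.8 CPM against 3.94, 3.69, 3.66 and 2.71 CPM. Sucrose synthase 2 (LOC117838151, 0.99 ± 0.15), which cleaves sucrose and was chosen after its values were seen, read 400, 410 and 481 CPM against 183, 265, 177 and 248 CPM. Each of these sucrose-related genes had every CTB P6B8 library above every MTS P5D6 library, which the naming rule required of the fructosyltransferase and SUT5-like genes.

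Genes of BURP domain proteins, a plant family of secreted and wall-associated proteins, supplied 3 of the 10 largest well-measured increases. BURP domain-containing protein 6-like (LOC117833098, 2.47 ± 0.36) stood at 16.6, 13.5 and 15.0 CPM with CTB P6B8 and 2.41, 5.16, 2.22 and 1.05 CPM with MTS P5D6. RAFTIN 1A-like (LOC117836289, 2.41 ± 0.19), of a family first described in wheat anthers, stood at 23.0, 17.6 and 23.6 CPM and 2.85, 4.89, 4.74 and 3.70 CPM. BURP domain-containing protein 13-like (LOC117847602, 2.18 ± 0.39) ran from 7.03 to 11.7 CPM and from 0.493 to 2.83 CPM. The naming rule required all 3 to have no overlap between the isolates. The 8 inflorescence markers summed to 8.73 to 10.1 CPM with CTB P6B8, 4.35 to 6.70 CPM with MTS P5D6 and 5.53 to 6.79 CPM in controls. Of the 4 tested, 2 were higher with CTB P6B8, and the part of these markers in the results was not tested.

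The other large increases were in a pto-interacting protein 1-like kinase (LOC117857327, 2.14 ± 0.17), 3-ketoacyl-CoA synthase 5-like (LOC117855247, 2.08 ± 0.25), which elongates fatty acids for waxes, proline-rich protein 2-like (LOC117840108, 2.01 ± 0.22) and endo-1,4-beta-xylanase 1-like (LOC117855047, 2.00 ± 0.20), which cuts wall xylan. CO(2)-response secreted protease (LOC117845756, 2.13 ± 0.32) stood at 14.3, 18.9 and 16.9 CPM with CTB P6B8 and 6.14, 3.53, 4.07 and 1.48 CPM with MTS P5D6. In Arabidopsis this protease matures a peptide that limits stomatal number under high carbon dioxide. The control mean was 12.5 ± 1.68 CPM (SD, n = 4), between the 2 isolates.

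Among highly expressed genes, the smallest p-values for higher levels belonged to the fructosyltransferase, a probable O-methyltransferase 2 (LOC117833851, 1.68 ± 0.13), 2 non-specific lipid-transfer protein 1-like genes (LOC117862450, 1.49 ± 0.11, and LOC117866414, 1.39 ± 0.12) and the defensin-like protein CAL1 (LOC117863901, 1.19 ± 0.09). The methyltransferase read 66.9, 66.8 and 72.9 CPM with CTB P6B8 and 19.1, 23.7, 25.8 and 17.5 CPM with MTS P5D6, with a control mean of 16.6 ± 5.33 CPM (SD, n = 4). CAL1, named in rice for binding cadmium, read 80.9, 74.7 and 89.8 CPM against 35.6, 38.0, 32.4 and 37.7 CPM. All 5 separated the groups without overlap, as did 3997 of the 4089 calls.

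The decreases were smaller and their largest members were less even among replicates. External alternative NAD(P)H-ubiquinone oxidoreductase B3-like (LOC117855270, -2.12 ± 0.51), a bypass entry of the mitochondrial electron chain, stood at 2.64, 0.691 and 1.58 CPM with CTB P6B8 and 6.25, 14, 4.07 and 4.81 CPM with MTS P5D6, and at 0.0598 ± 0.0776 CPM (SD, n = 4) in controls. It missed the threshold without CTB P6B8 replicate 3. Germin-like protein 1-1 (LOC117858641, -1.93 ± 0.51), of a family of secreted oxidase-like proteins, stood at 6.31, 2.07 and 2.2 CPM and 25.2, 9.02, 12.8 and 7.15 CPM, with controls at 0.249 ± 0.151 CPM (SD, n = 4). It missed the threshold without CTB P6B8 replicate 2 or 3 and when all 15 libraries were fitted together.

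Of the 10 largest well-measured decreases, 6 more were of several kinds, receptor kinases among them. Wall-associated receptor kinase 1-like (LOC117841478, -1.57 ± 0.26) stood at 14.6, 14.6 and 12.2 CPM with CTB P6B8 and 59.1, 48.1, 29.1 and 27.6 CPM with MTS P5D6. Alpha-amylase isozyme 3B-like (LOC117860330, -1.6 ± 0.25), a starch-degrading enzyme, stood at 4.03, 6.91 and 4.6 CPM and 19.3, 10.3, 15.1 and 17.8 CPM. Globulin-1 S allele-like (LOC117837362, -1.63 ± 0.27), of a seed storage protein family, F-box/LRR-repeat protein 14-like (LOC117841415, -1.66 ± 0.21), cytochrome P450 87A3-like (LOC117842819, -1.58 ± 0.32) and a receptor kinase with several deposited names, the first of them SD1-8 (LOC117836859, -1.6 ± 0.26), completed them. The naming rule required each to have no overlap between the groups.

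Among highly expressed genes, the lower calls of smallest p were close to 2-fold and even across libraries. Choice by p-value favours even libraries, and the median log2 fold change over all 1637 lower calls was -0.43. NAC domain-containing protein 2-like (LOC117837430, -0.94 ± 0.08), of a stress-related family of transcription factors, stood at 267, 294 and 273 CPM with CTB P6B8 and 530, 544, 543 and 515 CPM with MTS P5D6. Chloroplastic transketolase-like (LOC117856847, -1.12 ± 0.09), an enzyme of the pentose phosphate reactions, stood at 60.1, 51.2 and 51.0 CPM and 111, 115, 129 and 117 CPM. Integrin-linked protein kinase 1-like (LOC117858697, -1.02 ± 0.08) stood at 126, 113 and 111 CPM and 250, 229, 247 and 220 CPM. The control means of these 3 genes, 181, 41.4 and 47.6 CPM, lay below both isolates. Plant cysteine oxidase 2-like (LOC117850613, -1.02 ± 0.09), of the oxygen-sensing enzymes that mark group VII ERF factors for degradation, ran from 24.1 to 28.1 CPM and from 48.5 to 59.2 CPM. STRUBBELIG-RECEPTOR FAMILY 6-like (LOC117838611, -0.93 ± 0.09) ran from 141 to 168 CPM and from 276 to 321 CPM.

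**Figure D2:**
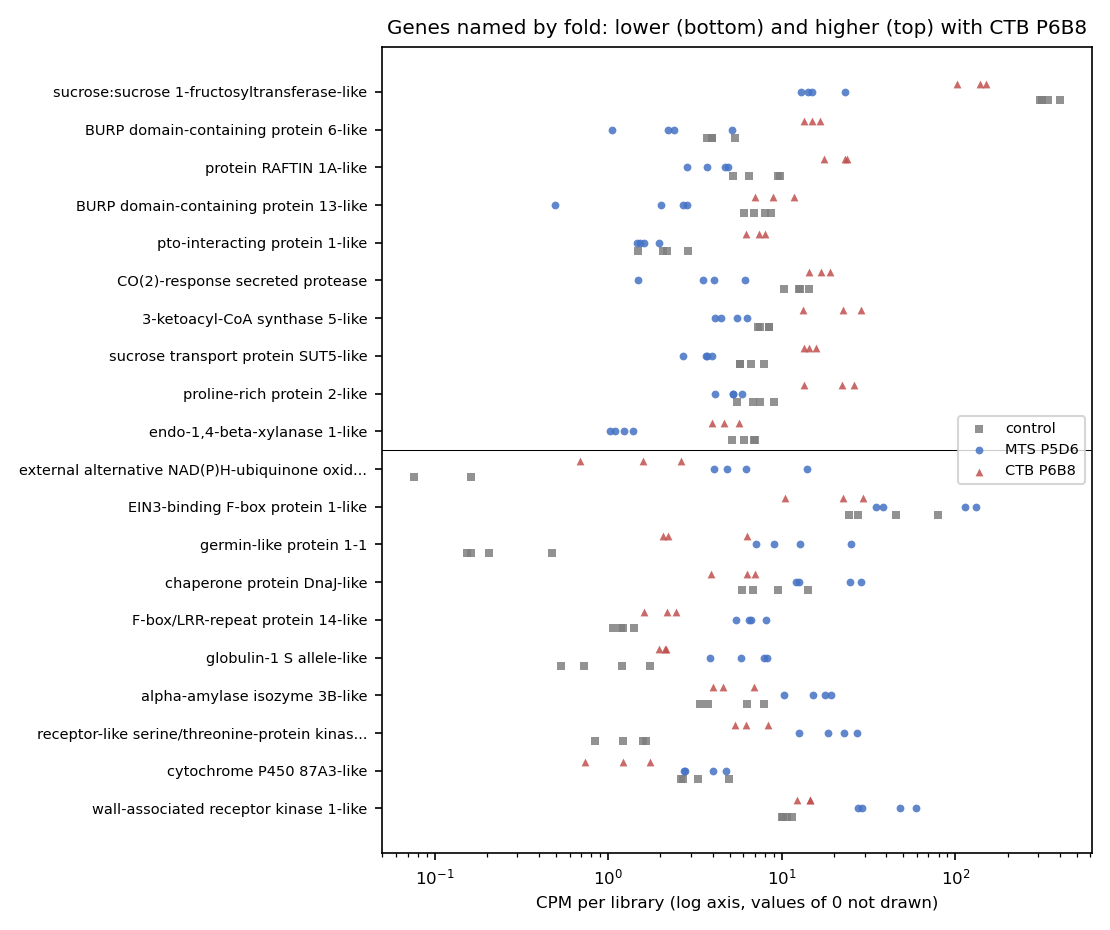
CPM on a log axis in each CTB P6B8, MTS P5D6 and mock control library for the 10 higher and 10 lower genes with the largest well-measured differences, 1 point per library, with values of 0 not drawn. For the fructosyltransferase the CTB P6B8 points lie at 102 to 150 CPM and the MTS P5D6 points at 12.9 to 23.1 CPM. The 2 isolate groups are separate in every gene drawn because the naming rule required it.

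To describe groups, 56 lists were taken by patterns on the deposited gene descriptions. Each is described by its calls beside the shares of all tested genes, 12.5% higher and 8.33% lower, and by its median log2 fold change beside -0.0011. These shares are not matched for level. The median log2 CPM was 1.34 for expansins, 2.18 for class III peroxidases and for flavonoid genes and 2.61 for growth and meristem factors. In that range 19.7% of all genes were higher. Ethylene genes had a median of 5.25, in a range where 16.1% of all genes were lower. Where leaving out 1 library moved a count by over 1.5 times, the count without it is given beside the list. Calls over all genes fell as well: without CTB P6B8 replicate 3, 1263 of 19845 genes tested were higher and 674 lower.

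**Figure D3:**
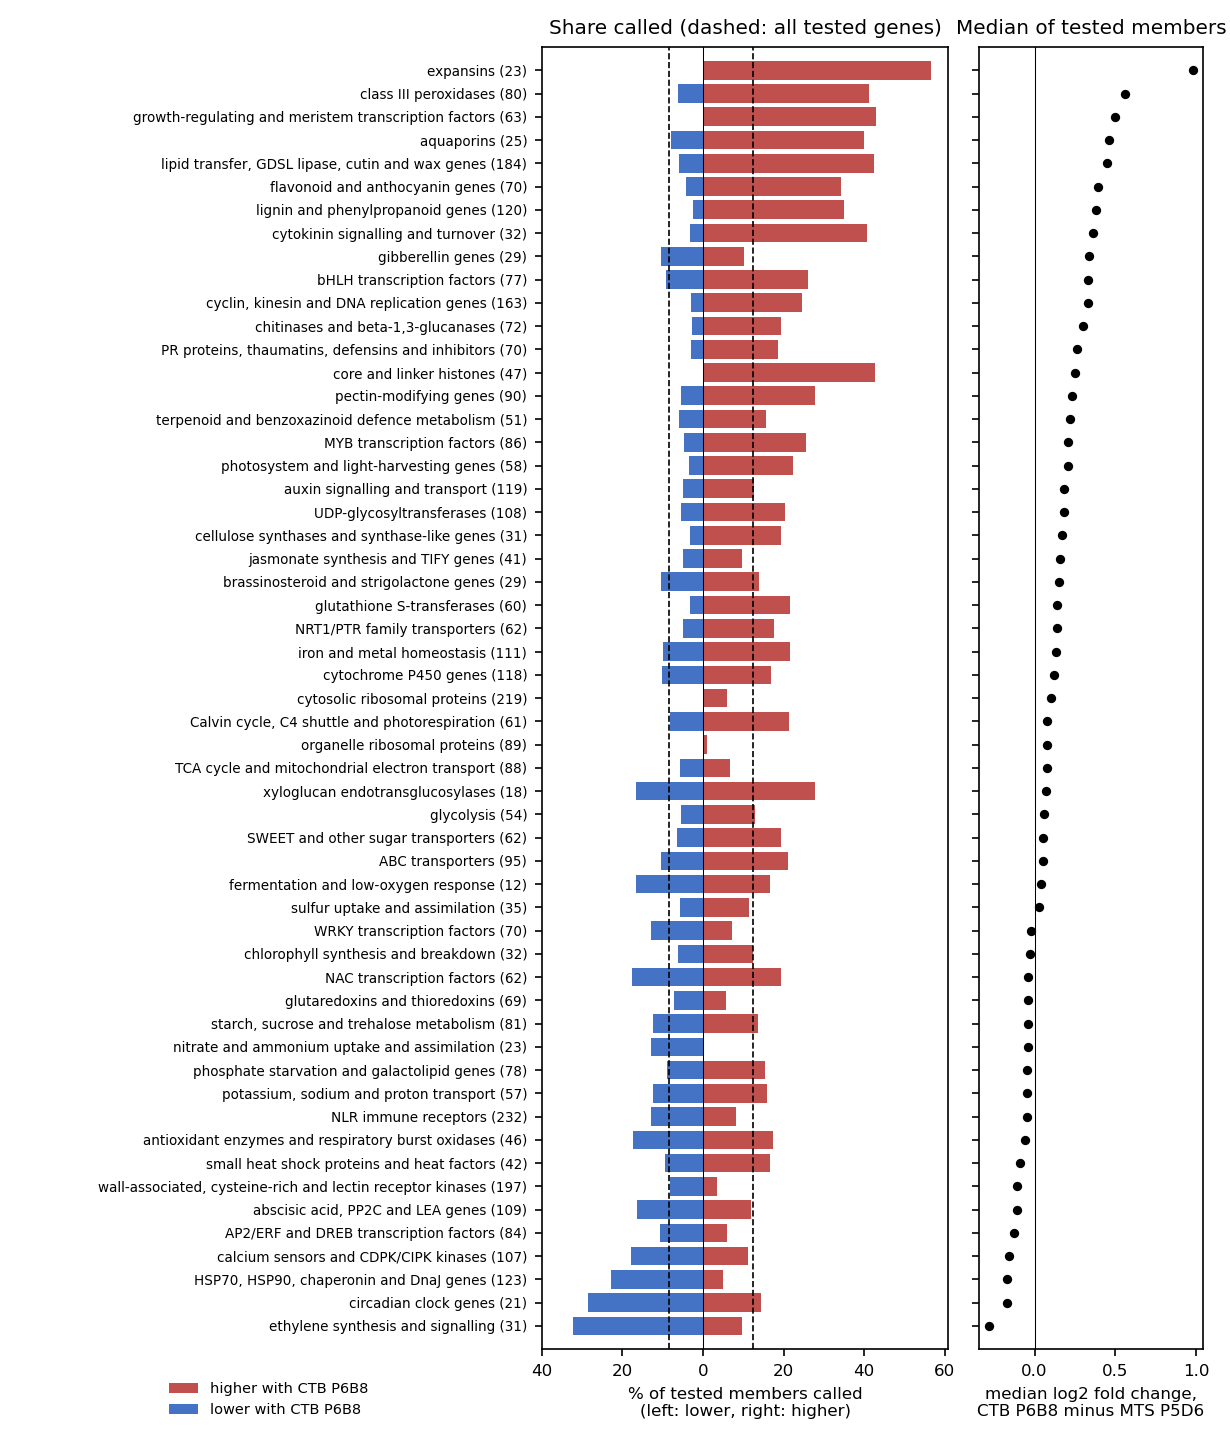
Share of tested members called higher and lower with CTB P6B8 in each list with at least 5 tested members, in percent, with dashed lines at the shares of all tested genes, 12.5% and 8.33%, and the list's median log2 fold change beside it. Expansins (56.5% higher) stand at one end and ethylene genes, with 10 of 31 lower, at the other.

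Of 44 expansin genes 23 were tested, and 13 were called higher with CTB P6B8 and none lower, 10 of the 13 by at least 2-fold, and the median was 0.98. Expansin-B3-like (LOC117835120, 1.62 ± 0.14) stood at 26.3, 27.3 and 32.5 CPM with CTB P6B8 and 10.8, 9.89, 7.48 and 9.18 CPM with MTS P5D6. A second expansin-B3-like gene (LOC117836062, 1.6 ± 0.12) stood at 16.7, 18.1 and 18.2 CPM and 6.46, 6.19, 5.57 and 5.12 CPM. The third (LOC117837027, 1.27 ± 0.12) ran from 15.1 to 17.2 CPM and from 5.97 to 7.61 CPM. Their control means, 35.6, 32.2 and 34.5 CPM, lay above both isolates, as did those of 8 of the 13, with the other 5 between. Beta-expansins are known in grasses for loosening walls, and near-identical copies could share reads. Expansin-B11-like (LOC117841673, 3.19 ± 0.39) and expansin-A1 (LOC117863097, 2.04 ± 0.46), the widest of the list and named after their values were seen, reached at most 2.07 and 2.01 CPM in any library. Without CTB P6B8 replicate 3, where 9.76% of all genes were called, 10 expansins were higher.

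Other wall genes moved in both directions. Of 90 pectin-modifying genes 25 were higher and 5 lower, led by pectinesterase/pectinesterase inhibitor 51 (LOC117859172, 1.35 ± 0.14) and polygalacturonase (LOC117860258, -0.51 ± 0.12), with 16 higher and 0 lower without CTB P6B8 replicate 3 and 2 or 3 lower without CTB P6B8 replicate 1 or MTS P5D6 replicate 1, 3 or 4. Xyloglucan endotransglucosylases, which cut and rejoin hemicellulose chains, had 5 of 18 higher and 3 lower, from protein 31-like (LOC117846640, 1.36 ± 0.18), at 6, 8.40 and 6.84 CPM against 2.79, 3.31, 2.58 and 2.34 CPM, to protein 24-like (LOC117862796, -0.97 ± 0.13), at 29.8, 29.7 and 23.5 CPM against 55.3, 53.8, 44.8 and 63.6 CPM. Cellulose synthases and related genes had 6 of 31 higher and 1 lower, but 2 higher without CTB P6B8 replicate 1 or 3 or MTS P5D6 replicate 1, 3 or 4, and 2 lower without CTB P6B8 replicate 2 or MTS P5D6 replicate 3. Synthase-like D4 (LOC117849752, 1.25 ± 0.18) was among the higher and D2 (LOC117852282, -0.61 ± 0.12) was the lower one.

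Transcription factors of organ growth and meristems were higher with CTB P6B8 in 27 of 63 tested members and lower in none, with a median of 0.50. Several families contributed: growth-regulating factors, which promote leaf cell proliferation, TCP and squamosa promoter-binding factors, YABBY factors of leaf polarity and KNOTTED-type homeobox genes of the meristem. Rough sheath 1-like (LOC117846153, 0.84 ± 0.13), a KNOTTED-type gene, stood at 6.58, 7.08 and 6.95 CPM with CTB P6B8 and 3.89, 4.24, 3.66 and 3.58 CPM with MTS P5D6. Knotted-1 (LOC117839570, 0.69 ± 0.13) stood at 13.5, 10.8 and 12.6 CPM and 8, 7.66, 6.45 and 8.51 CPM. The TCP gene PCF3-like (LOC117866288, 1.76 ± 0.28) ran from 1.2 to 1.27 CPM and from 0.247 to 0.438 CPM. All 3 separated the groups, and the control mean lay above both isolates for 10 of the 27 genes and between them for 17. Without CTB P6B8 replicate 3, 8 of the 63 were called higher, beside 1263 of all 19845 genes tested in that fit.

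Core and linker histone genes, many of them expressed while DNA is copied, were higher in 20 of 47 and lower in none, with a median of 0.25. Histone H2A (LOC117836195, 1.02 ± 0.11) stood at 19.6, 19.9 and 20.7 CPM with CTB P6B8, at 8.82, 9.73, 9.90 and 11.4 CPM with MTS P5D6 and at 23.0 ± 2.25 CPM (SD, n = 4) in controls. The called histones included H4, H3.2 and H2B genes, near-identical copies whose reads may be split, and the control mean lay above both isolates for 15 of the 20. Cyclin, kinesin and DNA replication genes were higher in 40 of 163 and lower in 5, with a median of 0.33. Cyclin-D5-2-like (LOC117846855, 1.21 ± 0.16), of the cyclins that start the cell cycle, stood at 4.88, 5.41 and 5.33 CPM and 2.14, 2.44, 1.96 and 2.47 CPM. The mitotic motor kinesin KIN-5A (LOC117849585, 0.74 ± 0.11) stood at 38.3, 40 and 43.9 CPM and 22.1, 28.7, 22.1 and 25.0 CPM. Kinesin KIN-13B (LOC117852274, -0.65 ± 0.09) and cyclin-dependent kinase G-1-like (LOC117860621, -0.55 ± 0.10) were lower. Without CTB P6B8 replicate 3 the higher counts were 12 of 47 histones and 12 of 163 cell cycle genes, beside 1263 of all 19845 genes. The higher count of cell cycle genes was 19, 20 or 22 without CTB P6B8 replicate 1, MTS P5D6 replicate 1 or MTS P5D6 replicate 3, and 26 without MTS P5D6 replicate 4. Cell cycle genes called lower numbered 2 or 3 without any 1 of the libraries except MTS P5D6 replicate 3.

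Markers of meristem and dividing tissue, some of which are also in these lists, were higher in 7 of 20 and lower in none, while their summed level was 811 to 856 CPM with CTB P6B8, 870 to 908 CPM with MTS P5D6 and 819 to 959 CPM in controls. That sum was dominated by homeobox protein knotted-1-like 11 (LOC117853057, -0.22 ± 0.07), which was not called and averaged 501 and 588 CPM. In whole shoots, more cells of a type and more RNA per cell cannot be told apart, and the part of tissue makeup in these results was not tested.

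**Figure D4:**
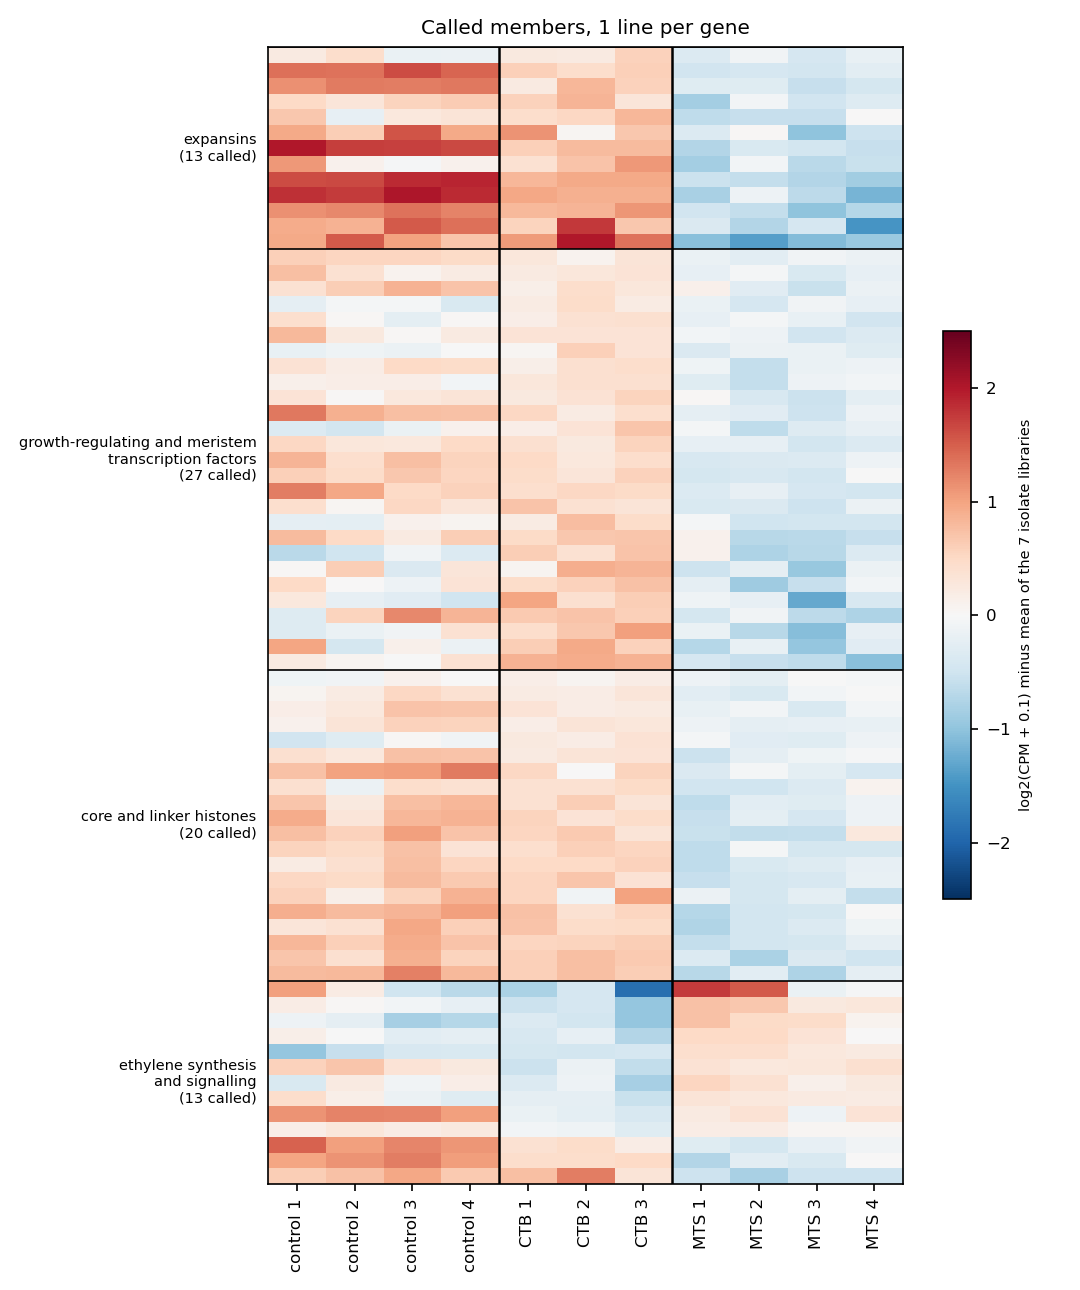
Log2 of CPM plus 0.1, minus the gene's mean over the 7 isolate libraries, for the 73 called members of 4 lists (13 expansins, 27 growth and meristem factors, 20 histones, 13 ethylene genes), with 1 column per CTB P6B8, MTS P5D6 or control library. Only called members are drawn, so the direction between the isolates follows from that choice. Those of the first 3 lists were all called higher with CTB P6B8, and 10 of the 13 ethylene genes lower.

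Cytokinin genes were higher with CTB P6B8 in 13 of 32 and lower in 1. The higher ones included response regulators, the signalling output of the pathway, such as ORR21-like (LOC117848504, 1.12 ± 0.19), at 3.53, 3.63 and 4.21 CPM against 1.92, 1.96, 1.44 and 1.66 CPM, and ORR24-like (LOC117843690, 0.45 ± 0.09). Of the cytokinin dehydrogenases, which degrade the hormone, number 3 (LOC117839989, 1.71 ± 0.34) was higher at a level below 1 CPM. Number 5 (LOC117854955, -1.53 ± 0.24), the 1 lower gene, stood at 3.27, 4.72 and 3.44 CPM with CTB P6B8 and 15.4, 11.3, 8.87 and 8.38 CPM with MTS P5D6. The higher count was 4 without CTB P6B8 replicate 3 and 8 without CTB P6B8 replicate 1 or 2 or MTS P5D6 replicate 1 or 3.

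Ethylene was the hormone list whose median lay lowest, at -0.28, with 10 of 31 members lower with CTB P6B8 and 3 higher. Ethylene receptor 3-like (LOC117841610, -1.13 ± 0.16) stood at 35.7, 38.6 and 26.6 CPM with CTB P6B8 and 86.4, 83.2, 61.8 and 63.1 CPM with MTS P5D6. Ethylene receptor 2-like (LOC117863701, -0.78 ± 0.15), the response sensors ERS2 (LOC117863272, -0.58 ± 0.12) and ERS1 (LOC117838160, -0.28 ± 0.08), REVERSION-TO-ETHYLENE SENSITIVITY1-like (LOC117849869, -1.03 ± 0.18), a regulator of receptor function, and the signal transducer EIN2-like (LOC117838365, -0.74 ± 0.17) were also lower. These 5 were named after their values were seen. An EIN3-binding F-box protein 1-like gene (LOC117852716, -1.94 ± 0.52; edgeR adjusted p = 0.028) stood at 22.6, 29.2 and 10.5 CPM with CTB P6B8, at 132, 113, 34.7 and 38.3 CPM with MTS P5D6 and at 44.3 ± 25.4 CPM (SD, n = 4) in controls. It missed the threshold without CTB P6B8 replicate 1 or 3 or MTS P5D6 replicate 1 or 2, with an edgeR adjusted p of up to 0.131 over all alternatives.

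ACC oxidases, which make ethylene, moved in both directions. The ethylene list also took in genes named as ACC oxidase homologs, and whether those make ethylene was not tested. ACC oxidase 1 (LOC117846380, -0.75 ± 0.11) stood at 60.5, 79.5 and 57.6 CPM with CTB P6B8 and 113, 106, 107 and 117 CPM with MTS P5D6. An ACC oxidase homolog 1-like gene (LOC117864422, -0.76 ± 0.08) stood at 195, 194 and 199 CPM and 353, 354, 318 and 310 CPM. ACC oxidase 1-like (LOC117839667, 1.43 ± 0.20) was higher, at 39.0, 56.4 and 28.7 CPM and 16.2, 13.1, 16.0 and 16.2 CPM, as was the transcription factor ETHYLENE-INSENSITIVE 3-like 2 (LOC117842069, 0.61 ± 0.15). Of AP2/ERF factors, some of which act downstream of ethylene, 5 of 84 were higher and 9 lower, among the latter ERF1-like (LOC117844919, -0.55 ± 0.09), with 4 lower without CTB P6B8 replicate 3 and 2 or 3 higher without CTB P6B8 replicate 2 or 3 or MTS P5D6 replicate 3 or 4. Gibberellin genes split evenly, with 3 higher and 3 lower of 29. Gibberellin-regulated protein 4-like (LOC117851358, 1.19 ± 0.12), of a family linked to cell expansion, read 52.7, 69.6 and 64.0 CPM with CTB P6B8 and 26.8, 32.2, 26.1 and 24.0 CPM with MTS P5D6. The inactivating gibberellin 2-beta-dioxygenases had number 8-like (LOC117851430, 1.30 ± 0.22) higher and another (LOC117848264, -0.58 ± 0.09) lower.

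Auxin genes were higher in 15 of 119 and lower in 6, a share higher close to that of all genes. The higher count was 8 and 7 without CTB P6B8 replicates 2 and 3, and the lower count 3 without CTB P6B8 replicate 3 or MTS P5D6 replicate 1. The repressor IAA13-like (LOC117837414, 0.85 ± 0.13) was higher at 59.5, 83.4 and 62.9 CPM against 33.8, 38.7, 35.7 and 44.6 CPM. Another repressor, IAA9-like (LOC117841458, -1.25 ± 0.20), was lower at 7.92, 10.8 and 9.62 CPM against 28.8, 25.0, 16.2 and 20.2 CPM. Jasmonate synthesis and TIFY genes had 4 of 41 higher and 2 lower, with 2 higher without CTB P6B8 replicate 1 or 3 or MTS P5D6 replicate 4, 4 lower without CTB P6B8 replicate 2 and 1 lower without CTB P6B8 replicate 3 or MTS P5D6 replicate 3. Within them linoleate 9S-lipoxygenase 3 (LOC117836611, 1.39 ± 0.14), which oxidises linoleate at a position used for other oxylipins, stood at 432, 595 and 539 CPM with CTB P6B8 and 218, 228, 166 and 188 CPM with MTS P5D6, near the control mean of 217 ± 7.55 CPM (SD, n = 4). The related 9S-lipoxygenase 4 (LOC117837920, -0.62 ± 0.09) went the other way, at 539, 533 and 468 CPM and 862, 754, 756 and 800 CPM. Abscisic acid, PP2C and LEA genes had 13 of 109 higher and 18 lower, or 7 and 8 without CTB P6B8 replicate 3. Brassinosteroid and strigolactone genes had 4 of 29 higher and 3 lower, with 1 lower without MTS P5D6 replicate 3 or 4. Protein phosphatase 2C 34 (LOC117839492, -0.66 ± 0.07) led the lower abscisic acid list, and the strigolactone synthesis enzyme D27 (LOC117859878, 0.80 ± 0.13) was higher.

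Genes of lipid transfer, GDSL lipases, cutin and wax were higher with CTB P6B8 in 78 of 184 and lower in 11, with a median of 0.45, and 39 of the higher ones differed by at least 2-fold. The lipid-transfer protein 1-like genes named above led them, at 72.8, 93.1 and 89.6 CPM against 32.0, 29.1, 34.1 and 26.1 CPM (LOC117862450) and at 159, 219 and 185 CPM against 75.9, 65.0, 78.4 and 67.7 CPM (LOC117866414). DIR1 (LOC117842532, 1.36 ± 0.11), a lipid-transfer protein known in Arabidopsis for carrying a systemic defence signal, stood at 72.8, 65.8 and 87.2 CPM and 34.1, 27.4, 27.8 and 28.8 CPM. Each of the 3 separated the groups, and the control means of 31.7, 86.9 and 40.9 CPM lay between or near the MTS P5D6 level. Among lower members, GDSL esterase/lipase At5g45910-like (LOC117858021, -0.81 ± 0.13) had the smallest p. The lower count fell to 1 or 2 without CTB P6B8 replicate 3 or 1 and to between 4 and 7 without any 1 of the MTS P5D6 replicates. The cytochrome P450 86B1-like gene (LOC117839372, 1.43 ± 0.14), of a fatty acid hydroxylase family in suberin and cutin synthesis, was also higher, at 16.0, 20.8 and 20.9 CPM against 7.45, 6.19, 8.25 and 6.78 CPM. It belongs to a list of P450 genes with 20 of 118 higher and 12 lower, or 12 and 6 without CTB P6B8 replicate 3. An ABC transporter G family member 5-like gene (LOC117835874, 1.31 ± 0.12) led 20 higher of 95 ABC transporters, against 10 lower led by C family member 15 (LOC117857812, -1.38 ± 0.16). These counts were 12 and 3 without CTB P6B8 replicate 3, and 6 were lower without MTS P5D6 replicate 1, 2 or 4.

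Class III peroxidases, secreted enzymes that use hydrogen peroxide to cross-link wall phenolics, were higher in 33 of 80 and lower in 5, with a median of 0.56 and 20 higher and 3 lower by at least 2-fold. Peroxidase A2-like (LOC117841093, 1.78 ± 0.20) stood at 45.2, 29.1 and 42.7 CPM with CTB P6B8, 9.53, 11.0, 15.6 and 9.49 CPM with MTS P5D6 and 7.31 ± 2.55 CPM (SD, n = 4) in controls. Peroxidase 43-like (LOC117866394, 1.67 ± 0.18) stood at 22.5, 34.8 and 30 CPM and 8.66, 7.50, 8.71 and 11.9 CPM, with controls at 27.4 ± 2.54 CPM (SD, n = 4). The controls thus lay by the MTS P5D6 level for one and by the CTB P6B8 level for the other. Peroxidase 4-like (LOC117862486, -1.41 ± 0.25) was the clearest exception, at 5.68, 4.72 and 2.59 CPM and 11.3, 13.6, 11.8 and 9.25 CPM. The lower count was 1 to 3 without any 1 of the libraries except MTS P5D6 replicate 2.

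Lignin and phenylpropanoid genes were higher in 42 of 120 and lower in 3, with a median of 0.38. Phenylalanine/tyrosine ammonia-lyase (LOC117861038, 1.09 ± 0.09), the entry enzyme of the pathway, stood at 84.6, 104 and 82.8 CPM with CTB P6B8 and 43.0, 44.3, 40.2 and 43.1 CPM with MTS P5D6. Laccase-15-like (LOC117833551, 1.63 ± 0.13), of the enzymes that polymerise lignin units, stood at 51.6, 65.8 and 64.9 CPM and 19.6, 23.6, 15.9 and 19.8 CPM. A second laccase-15-like gene (LOC117834112, 1.27 ± 0.13) ran from 92.5 to 118 CPM and from 33.9 to 49.0 CPM. Of the 3 lower genes, a 4-coumarate--CoA ligase-like 1 gene (LOC117840893, -0.39 ± 0.07) had the smallest p, and cinnamoyl-CoA reductase 2-like (LOC117842405, -0.78 ± 0.22) overlapped between the groups. The lower count was 1 without CTB P6B8 replicate 3 and 5 without CTB P6B8 replicate 2 or MTS P5D6 replicate 2. Flavonoid and anthocyanin genes were higher in 24 of 70 and lower in 3, with a median of 0.39, and 15 were higher without CTB P6B8 replicate 3. Flavonoid O-methyltransferase-like Os11g0303600 (LOC117833316, 1.6 ± 0.13) stood at 49.2, 43.1 and 57.3 CPM and 15.8, 19.6, 16.8 and 13.7 CPM. A putative dihydroflavonol 4-reductase (LOC117838561, -0.90 ± 0.15), of the step leading to anthocyanidins, was lower at 33.1, 50.1 and 34.8 CPM against 80.0, 73.8, 63.0 and 77.4 CPM. UDP-glycosyltransferases had 22 of 108 higher and 6 lower, or 14 and 3 without CTB P6B8 replicate 3. Glutathione S-transferases had 13 of 60 higher and 2 lower, led by GSTU6 (LOC117854883, 1.68 ± 0.15), with 7, 8 and 8 higher without CTB P6B8 replicates 1, 2 and 3 and 5 lower without CTB P6B8 replicate 1.

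Aquaporins, the water channels of plasma and vacuolar membranes, were higher in 10 of 25 and lower in 2, with a median of 0.46. PIP1-2 (LOC117865908, 0.74 ± 0.09), a plasma membrane type, stood at 285, 307 and 314 CPM with CTB P6B8, 159, 204, 177 and 185 CPM with MTS P5D6 and 318 ± 23.9 CPM (SD, n = 4) in controls. The tonoplast type TIP2-1 (LOC117856623, 1.5 ± 0.20) stood at 10.4, 12.0 and 10.3 CPM and 5.48, 3.10, 3.61 and 3.27 CPM. NIP1-1 (LOC117841428, 0.85 ± 0.12) was also higher. Opposite to these, PIP2-7 (LOC117842431, -1.29 ± 0.29) stood at 50.5, 21.9 and 35.4 CPM and 57.7, 76.9, 105 and 115 CPM, and it missed the threshold without CTB P6B8 replicate 3. TIP4-2-like (LOC117848247, -1.07 ± 0.31) stood at 18.7, 13.2 and 18.4 CPM and 21.1, 23.0, 49.2 and 48.6 CPM. Without CTB P6B8 replicate 3, 9 aquaporins were called higher and none lower, and 1 was lower without CTB P6B8 replicate 1 or 2 or MTS P5D6 replicate 3 or 4.

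In the defence lists that follow, 22.2%, 21.4% and 21.6% of tested members were called, near the 20.8% of all genes. Their shares called higher were 19.4%, 18.6% and 15.7%, beside 12.5% of all genes, and lower 2.78%, 2.86% and 5.88%, beside 8.33%. The median log2 CPM of these lists was 3.84, 2.32 and 1.18. In the range of the first, 12.5% of all genes were higher and 6.52% lower. In the range of the other lists, 19.7% of all genes were higher and 2.99% lower. Chitinases and beta-1,3-glucanases, which digest fungal walls and plant callose, were higher in 14 of 72 and lower in 2, with a median of 0.30. Glucan endo-1,3-beta-glucosidase 13-like (LOC117855576, 0.88 ± 0.17) stood at 31.7, 49.1 and 30.3 CPM with CTB P6B8 and 20.9, 23.1, 17.2 and 19.4 CPM with MTS P5D6. An endochitinase A-like gene (LOC117863108, 1.12 ± 0.28), named after its values were seen, stood at 216, 563 and 258 CPM and 182, 133, 155 and 166 CPM. CTB P6B8 replicate 2 was the highest library for it, and the control mean was 70.8 ± 9.53 CPM (SD, n = 4). The higher count was 6, 9 and 8 without CTB P6B8 replicate 3, CTB P6B8 replicate 2 and MTS P5D6 replicate 2, and the lower count 0 without CTB P6B8 replicate 1 or 3, 1 without MTS P5D6 replicate 3 or 4 and 5 without CTB P6B8 replicate 2. Pathogenesis-related proteins, thaumatins, defensins and inhibitors were higher in 13 of 70 and lower in 2, with 8 higher without CTB P6B8 replicate 1 or 3 and 0 lower without the latter. Germin-like genes were at both ends of that list, with 1-3 (LOC117855447, 1.68 ± 0.18) and 8-14 (LOC117861183, 1.66 ± 0.23) higher and 2-2 (LOC117865721, -2.02 ± 0.50) lower. Terpenoid and benzoxazinoid genes were higher in 8 of 51 and lower in 3, among them the benzoxazinoid enzyme indole-2-monooxygenase-like (LOC117863830, 0.78 ± 0.11), at 20.0, 19.3 and 21.0 CPM and 11.2, 13.4, 11.6 and 10.8 CPM. The counts were 5 and 0 without CTB P6B8 replicate 1 and 5 and 5 without replicate 2, and 1 was lower without replicate 3.

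Receptors and signalling kinases had more lower than higher calls. Wall-associated, cysteine-rich and lectin receptor kinases were lower with CTB P6B8 in 16 of 197 and higher in 7. These shares of 8.12% and 3.55% stood beside 8.33% and 12.5% of all genes. The list's median log2 CPM was 2.63, in a range where 2.99% of all genes were lower and 19.7% higher. For 13 of the 16 lower members the control mean lay below both isolates. A G-type lectin S-receptor-like kinase (LOC117854608, -1.04 ± 0.11) stood at 10.2, 10.1 and 9.78 CPM with CTB P6B8, 19.9, 18.5, 23.6 and 20.3 CPM with MTS P5D6 and 6.17 ± 0.493 CPM (SD, n = 4) in controls. Wall-associated receptor kinase 3-like (LOC117834173, 1.47 ± 0.18) went the other way. NLR immune receptors, which detect pathogen proteins inside cells, were higher in 19 of 232 and lower in 30. Their share called in either direction, 21.1%, was near the 20.8% of all genes. RGA3 (LOC117861001, -1.07 ± 0.14) had the smallest p among the lower ones, at 6.85, 5.53 and 5.33 CPM against 13.7, 12.1, 10.9 and 13 CPM. Calcium sensors and CDPK/CIPK kinases had 12 of 107 higher and 19 lower, with calcium-dependent protein kinase 2-like (LOC117844661, -0.60 ± 0.09) at 173, 167 and 188 CPM and 242, 288, 273 and 272 CPM. Lower calls numbered 7 for the receptor kinases, 9 for the NLR genes and 8 for the calcium list without CTB P6B8 replicate 3, where 7 calcium genes were higher, and higher calls of NLR genes 9 to 11 without CTB P6B8 replicate 2 or 3 or MTS P5D6 replicate 1.

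Of 123 HSP70, HSP90, chaperonin and DnaJ genes, which fold other proteins, 28 were lower with CTB P6B8, 6 higher and 89 not called, with a median of -0.17, and the control mean lay below both isolates for 17 of the 28. DnaJ-like (LOC117859867, -1.76 ± 0.35), a co-chaperone of HSP70, stood at 7.03, 6.33 and 3.90 CPM with CTB P6B8 and 24.8, 28.5, 12.1 and 12.5 CPM with MTS P5D6. Another DnaJ-like gene (LOC117849617, -0.59 ± 0.08) stood at 46.4, 49.0 and 40.1 CPM and 68.0, 66.6, 68.8 and 68.4 CPM. HSP70-4-like (LOC117840145, -0.84 ± 0.21), named after its values were seen, stood at 162, 91.6 and 86.9 CPM, at 218, 179, 240 and 178 CPM and at 24.5 ± 3.25 CPM (SD, n = 4) in controls. The lower count fell to between 11 and 15 without any 1 of the CTB P6B8 replicates or MTS P5D6 replicate 3, and the higher count to 3 without CTB P6B8 replicate 3 or MTS P5D6 replicate 1, 3 or 4. Small heat shock proteins and heat factors had 7 of 42 higher and 4 lower, with heat factor A-3-like (LOC117834166, -1.44 ± 0.15) at 4.88, 4.6 and 4.79 CPM against 10.2, 13.1, 14.5 and 14.1 CPM and heat factor C-2b-like (LOC117853295, 1.32 ± 0.23) at 8.59, 8.75 and 7.34 CPM against 3.51, 1.85, 3.66 and 4.19 CPM. These counts were 3 and 2 without CTB P6B8 replicate 3, with 7 lower without CTB P6B8 replicate 1 and 2 lower without MTS P5D6 replicate 1.

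Of 58 photosystem and light-harvesting genes 13 were higher with CTB P6B8, 2 lower and 43 not called, with a median of 0.21 and no member past 2-fold. The list is highly expressed, at a median log2 CPM of 7.48, a range in which 5.97% of all genes were higher. Photosystem II reaction center W protein (LOC117848524, 0.66 ± 0.11) stood at 20.0, 19.8 and 23.2 CPM with CTB P6B8, at 12.5, 12.5, 15.2 and 13.2 CPM with MTS P5D6 and at 33.5 ± 6.84 CPM (SD, n = 4) in controls. For 12 of the 13 higher members the control mean lay above both isolates. The higher count was 1 without CTB P6B8 replicate 3, 5 to 7 without CTB P6B8 replicate 1 or MTS P5D6 replicate 1, 2 or 4, and 24 without CTB P6B8 replicate 2. The lower count was 1 without any 1 of the libraries except CTB P6B8 replicate 3 and MTS P5D6 replicate 1. Protochlorophyllide reductase (LOC117849439, 1.12 ± 0.15), the light-driven step of chlorophyll synthesis, stood at 330, 292 and 441 CPM and 133, 173, 179 and 168 CPM. It was among 4 higher, with 2 lower, of 32 chlorophyll genes. There was 1 in each direction without CTB P6B8 replicate 3, and 1 higher without replicate 1.

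Carbon enzymes of the Calvin cycle, C4 shuttle and photorespiration had 13 of 61 higher and 5 lower. Carbonic anhydrases, which hydrate carbon dioxide to bicarbonate, were the highest of these. Alpha type 4-like (LOC117860067, 1.59 ± 0.16) stood at 10.4, 7.60 and 9.66 CPM against 3.18, 3.42, 3.20 and 2.53 CPM. Alpha type 8-like (LOC117833561, 1.75 ± 0.22), named after its values were seen, stood at 75.4, 116 and 108 CPM against 38.8, 33.6, 19.1 and 27.7 CPM. A role of these alpha types in C4 fixation was not tested. Pyruvate, phosphate dikinase 2-like (LOC117840767, -1.16 ± 0.16), a pyruvate-recycling enzyme, was lower at 40, 32.3 and 33.2 CPM against 101, 62.2, 72 and 79.3 CPM. The higher count was 6 to 8 without any 1 of the 7 libraries. Starch, sucrose and trehalose genes had 11 of 81 higher and 10 lower, sugar transporters 12 of 62 higher and 4 lower, glycolysis 7 of 54 higher and 3 lower, and the TCA cycle and mitochondrial electron transport 6 of 88 higher and 5 lower. The higher and lower counts of these 4 lists without CTB P6B8 replicate 3 were 6 and 5, 7 and 0, 1 and 1, and 1 and 1. Leaving out another library gave 6 or 7 higher starch genes (CTB P6B8 replicate 1 or 2, MTS P5D6 replicate 1 or 4) and 6 lower (CTB P6B8 replicate 1, MTS P5D6 replicate 4). For sugar transporters it gave 7 higher (CTB P6B8 replicate 1 or 2) and 0 to 2 lower (any except MTS P5D6 replicate 2). For glycolysis it gave 1 to 4 higher (CTB P6B8 replicate 1, MTS P5D6 replicate 1, 3 or 4), and for the TCA list 2 lower (CTB P6B8 replicate 1). Trehalose-phosphate synthase 6-like (LOC117837626, 0.71 ± 0.08) stood at 47, 48.9 and 48.0 CPM and 27.4, 33.0, 29.2 and 28.3 CPM. Cytosolic ribosomal proteins were higher in 13 of 219 and lower in none, a share of 5.94%, with a median of 0.10, and organelle ribosomal proteins were higher in 1 of 89. The first count was 1 without CTB P6B8 replicate 3, 5 without CTB P6B8 replicate 1, 8 without MTS P5D6 replicate 1 or 4 and 31 without CTB P6B8 replicate 2, and the second was 0 to 2 over the fits with 1 library left out. In single fits 1 cytosolic gene (without CTB P6B8 replicate 1 or MTS P5D6 replicate 1 or 2) and 1 organelle gene (without MTS P5D6 replicate 1) were lower.

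Of 23 genes of nitrogen uptake and assimilation, 20 were not called, 3 were lower and none higher, with a median of -0.04. The list's median log2 CPM was 5.05, in a range where 16.1% of all genes were lower and 5.97% higher. Cytosolic glutamine synthetase 1-3 (LOC117838069, -1.25 ± 0.16), which fixes ammonium into glutamine, stood at 53.4, 43.0 and 32.5 CPM with CTB P6B8, at 102, 94.3, 119 and 94.6 CPM with MTS P5D6 and at 22.8 ± 7.61 CPM (SD, n = 4) in controls. The other 2, named after their values were seen, were NADH glutamate synthase 2 (LOC117848374, -1.25 ± 0.32) and glutamate dehydrogenase 2 (LOC117864129, -0.65 ± 0.13), which averaged 1580 and 2480 CPM. In the fits without CTB P6B8 replicate 2 or MTS P5D6 replicate 2, 1 nitrogen gene was called higher. NRT1/PTR transporters had 11 of 62 higher and 3 lower. Sulfur genes had 4 of 35 higher and 2 lower, with 2 higher without CTB P6B8 replicate 2 or MTS P5D6 replicate 1 and 1 lower without CTB P6B8 replicate 2 or MTS P5D6 replicate 2. Iron and metal genes were higher in 24 of 111 and lower in 11, among the latter the metal transporter Nramp2 (LOC117839155, -0.58 ± 0.09), at 194, 190 and 193 CPM and 264, 275, 293 and 323 CPM. The iron-deficiency regulator IRO2-like (LOC117854697, -0.93 ± 0.23), named after its values were seen, stood at 94.8, 118 and 141 CPM, at 151, 195, 250 and 308 CPM and at 19.7 ± 3.83 CPM (SD, n = 4) in controls. Phosphate starvation genes had 12 of 78 higher and 7 lower, with 5 and 4 without CTB P6B8 replicate 3, 7 and 4 without MTS P5D6 replicate 4 and 4 lower without CTB P6B8 replicate 1. Potassium, sodium and proton transport had 9 of 57 higher and 7 lower, with 4 and 3 without CTB P6B8 replicate 3 and 5 higher without CTB P6B8 replicate 2.

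Low-oxygen genes had 2 of 12 higher and 2 lower, with 1 lower without any 1 of the libraries except MTS P5D6 replicate 4. Non-symbiotic hemoglobin-like (LOC117850458, 1.80 ± 0.21), of a nitric oxide scavenging protein family, stood at 26.1, 24.2 and 29.2 CPM with CTB P6B8, at 11.0, 7.06, 7.22 and 5.12 CPM with MTS P5D6 and at 39.0 ± 3.96 CPM (SD, n = 4) in controls. Group VII ERF genes split, with RAP2-3-like (LOC117840982, 0.70 ± 0.12) higher at 27.8, 34.5 and 38.0 CPM against 21.9, 21.4, 18.2 and 21.1 CPM and RAP2-12-like (LOC117840983, -0.81 ± 0.16) lower at 11.6, 9.38 and 11.0 CPM against 18.1, 24.3, 17.1 and 15.5 CPM. Antioxidant enzymes and respiratory burst oxidases had 8 of 46 higher and 8 lower. Burst oxidase B-like (LOC117833104, -0.72 ± 0.08), a source of extracellular superoxide, stood at 139, 150 and 130 CPM and 236, 243, 217 and 226 CPM, and peroxisomal ascorbate peroxidase 3 (LOC117863384, 0.82 ± 0.14) was higher. The counts were 3 and 3 without CTB P6B8 replicate 3, and 4 or 5 were lower without CTB P6B8 replicate 1 or 2 or MTS P5D6 replicate 1, 2 or 3. Glutaredoxins and thioredoxins had 4 of 69 higher and 5 lower, with 0 and 3 without CTB P6B8 replicate 3, 2 higher without any 1 of the other libraries except MTS P5D6 replicate 2, and 3 lower without MTS P5D6 replicate 4.

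Clock genes had 6 of 21 lower and 3 higher, with a median of -0.17. The higher count was 0 without CTB P6B8 replicate 3 or MTS P5D6 replicate 3 and 1 without any 1 of the others except MTS P5D6 replicate 4. APRR3 (LOC117833043, -0.56 ± 0.07), a pseudo-response regulator of the clock, stood at 160, 156 and 163 CPM with CTB P6B8 and 235, 233, 239 and 234 CPM with MTS P5D6. GIGANTEA (LOC117857839, -0.66 ± 0.11) and PRR95 (LOC117844604, -0.66 ± 0.13), both chosen after their values were seen, averaged 283 and 302 CPM against 450 and 479 CPM. The sources used here do not give the hour of harvest. Among transcription factor families, bHLH genes had 20 of 77 higher and 7 lower, MYB genes 22 of 86 higher and 4 lower, NAC genes 12 of 62 higher and 11 lower, and WRKY genes 5 of 70 higher and 9 lower. Leaving out CTB P6B8 replicate 3 gave 13 and 4 for bHLH, 12 and 0 for MYB, 6 and 6 for NAC and 2 and 4 for WRKY genes. The lower bHLH count was 4 without CTB P6B8 replicate 1 or MTS P5D6 replicate 2, and the lower MYB count 0 to 2 without any 1 of the libraries except MTS P5D6 replicate 3. NAC genes called higher numbered 7 without CTB P6B8 replicate 2 or MTS P5D6 replicate 4. WRKY genes called higher numbered 3 and 2 without CTB P6B8 replicates 1 and 2, and those called lower 5 without MTS P5D6 replicate 1 or 4. Transcription factor bHLH18-like (LOC117840316, 2.54 ± 0.34) stood at 1.57, 1.61 and 1.97 CPM and 0.219, 0.326, 0.155 and 0.493 CPM. In the other direction, bHLH128-like (LOC117859190, -1.53 ± 0.25) stood at 31.2, 38.6 and 22.2 CPM and 114, 106, 77.4 and 56.9 CPM, and WRKY2 (LOC117861251, -0.72 ± 0.11) at 57.3, 54.9 and 51.6 CPM and 105, 95.6, 76.5 and 83.5 CPM. For 7 of the 9 lower WRKY genes the control mean lay below both isolates.

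The authors' deposited table for the same pair of isolates held 23214 genes, of which 5987 had an adjusted p under 0.05, 2898 higher and 3089 lower with CTB P6B8. Of these, 3945 were also called here, 96.5% of the calls made here and 65.9% of those in the authors' deposited table, and all 3945 had the same sign.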

How the data were processed

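Total RNA of shoots was extracted with a column kit and made into stranded total RNA libraries, per the labels' protocols. Tools listed in the submitters' processing notes are featureCounts, HISAT2, Trimmomatic, FastQC and DESeq2 1.6.3. The sources used here do not give the genome build or whether counting used strand, so genes that overlap, lie antisense or are near-identical may share counts. The authors deposited raw counts for 28032 genes and 15 libraries. Their deposited table for this pair gives a mean normalized signal, a log2 fold change, a test score and a p-value per gene, and its p-values equal its adjusted p-values wherever both are given. Descriptions came from that table, with several names for 396 genes, and 26219 identifiers matched a table of the assembly Setaria_viridis_v4.0.

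The 7 libraries alone were fitted with edgeR 4.0.16 (R 4.3.3, TMM scaling, filterByExpr, quasi-likelihood F test, two-sided, Benjamini-Hochberg adjusted p under 0.05, no fold minimum or covariate). Of the genes, 3257 had 0 counts in all 7 and 19645 passed the filter. CPM printed used TMM scaling over all 15 libraries with no prior count, and mean log2 CPM used a prior count of 2. The procedure was tested on simulated data. No genes of a list were tested as a set.

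The comparison, lists, alternatives and naming rule were chosen with earlier results of these data known. The rule took, in each direction, the 10 called genes with the largest fold, a mean log2 CPM of at least 1, no overlap between groups and an informative description. It added the 5 of smallest p in each direction with a mean log2 CPM of at least 5. From each list with at least 5 tested members it took the called member of smallest p in each direction, or 3 for the 14 lists whose median lay farthest from that of all genes. The 18 alternatives were other scaling, filters, thresholds and fits (DESeq2 1.42.0, limma-voom 3.58.1, all 15 libraries), 2 replicate blocks and each of the 7 libraries left out. Figures used Python 3.11 and matplotlib 3.10.9.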

Additional observations from a re-analysis of the deposited data

Results flagged for a closer look

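Of the 172 genes chosen by the naming rule, 5 had 1 of the 4 MTS P5D6 libraries far from the other 3, a gap larger than 0.829 of the group's range. Chance alone flags about 1 in 20 groups of this kind. The isoflavone reductase homolog IRL (LOC117858521) stood at 10.6 CPM in replicate 3 and at 6.36 to 6.90 CPM in the others. An anthocyanidin 5,3-O-glucosyltransferase-like gene (LOC117859790) stood at 25.8 CPM in replicate 2 and at 16.3 to 17.9 CPM in the others. The ACC oxidase 1-like gene that was higher with CTB P6B8 (LOC117839667) stood at 13.1 CPM in replicate 2 and at 16.0 to 16.2 CPM in the others. Hexokinase-8-like (LOC117857828) stood at 2.40 CPM in replicate 4 and at 2.94 to 3.04 CPM in the others. NAC domain-containing protein 18-like (LOC117860738) stood at 48.1 CPM in replicate 1 and at 40 to 41.1 CPM in the others. None of the 5 distant values lay within the range of the CTB P6B8 libraries.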

How the results depend on the processing

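The number of called genes held within 1.5 times under relative log expression scaling, both other filters, DESeq2 (4532, of which 2319 higher), limma-voom (4789) and a fit of all 15 libraries (5347). Total counts alone gave 1054 lower. An adjusted p under 0.01 left 1297 genes (906 higher, 391 lower), and a 2-fold minimum left 917 (777 higher, 140 lower), both by construction. Leaving out 1 library gave 1937 to 3476 genes, 1263 to 2159 higher and 674 to 1369 lower, lowest without CTB P6B8 replicate 3. The sample titles number the replicates and do not state a pairing. Titles of MTS P5D6 replicates run from 1 to 4, while their count columns are numbered 1, 2, 4 and 5. Title replicates 3 and 4 are thus columns 4 and 5, so the 2 kinds of block differ. Deviations of libraries with the same title number correlated at 0.0498, -0.147 and -0.0298, and no library correlated best with its own number. With so few libraries in each group, these correlations cannot decide whether libraries of the same number shared a batch. A replicate block by title number left 1405 genes (943 higher, 462 lower). A replicate block by column number, with 1 residual degree of freedom, left 0 (0 higher, 0 lower; 3621 genes at an unadjusted p under 0.05). In it the median of AP2/ERF genes turned to 0.09 and that of wall-associated, cysteine-rich and lectin receptor kinases to 0.06, and the cause was not tested. Of the 172 genes chosen by rule none reversed. DESeq2, limma-voom, relative log expression and no filter kept every one, all 15 libraries and total counts lost 3 each, the blocks by title and by column number lost 35 and all 172, and leaving out CTB P6B8 replicate 1, 2 or 3 lost 16, 7 or 25 and an MTS P5D6 replicate 5 to 9. The number of replicates and uncertain read sharing between similar genes limit small differences.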

Other observations

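Runs of at least 3 called genes with the same family name and direction stood next to each other in 6 places, 19 genes in all, in the gene order of Setaria_viridis_v4.0. Pairs were not counted, and no share expected over all genes was computed. In 1 place 4 proline-rich protein genes were all higher with CTB P6B8: PRP4-like (LOC117840775, 0.72 ± 0.10) averaged 460 and 281 CPM, a second PRP4-like gene (LOC117840110, 0.99 ± 0.16) 235 and 119 CPM, another (LOC117840109, 1.56 ± 0.33) 3.79 and 1.30 CPM and PRP2-like (LOC117840108, 2.01 ± 0.22) 20.6 and 5.12 CPM, where the brackets hold log2 fold changes ± SE with n = 3 and 4. Proline-rich proteins are structural proteins of the cell wall. In another place 3 expansin-B genes were higher: expansin-B4 (LOC117837026, 0.98 ± 0.14) and the expansin-B3-like pair LOC117837027 and LOC117836062. A further 3 places held peroxidase 72-like genes (3 genes, log2 fold changes of 1.30, 1.33 and 1.41) and non-specific lipid-transfer proteins (3 genes in each of 2 places, 0.51 to 1.49), all higher. The sixth held 3 FAR1-RELATED SEQUENCE genes, lower by -0.26 to -0.32. Neighbouring copies may share reads.

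Some of the widest fitted differences were in genes of very low level or uneven replicates, chosen here after their values were seen. Transcription factor bHLH35-like (LOC117862732, -4.65 ± 1.26) stood at 0.0895, 0.288 and 0.0386 CPM with CTB P6B8 and at 0.438, 1.63, 9.75 and 1.11 CPM with MTS P5D6, where replicate 3 held most of the signal. NADPH:quinone oxidoreductase 1 (LOC117836940, 3.88 ± 0.52) stood at 4.43, 4.6 and 10.7 CPM and at 0.0548, 0.815, 0.361 and 0.555 CPM, with a control mean of 0.0327 CPM. A 22 kDa alpha-zein 16-like gene (LOC117840433, 2.90 ± 0.27), of a seed storage protein family, stood at 2.15, 2.24 and 1.93 CPM and at 0.383, 0.217, 0.258 and 0.247 CPM, and was at 0 counts in all 4 controls.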
